A study of Mus musculus with 4 samples.

Results

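The genes that copy DNA in S phase were followed in Nf2-null mouse Schwann cells, with and without NXD30001, which the series title names as an HSP90 inhibitor. Members were the rows whose symbol equals 1 of 49 listed names, with a usable estimate (status OK) and at least 1 FPKM in either library of a table. FPKM is a fragment count adjusted for transcript length and for sequencing depth. All 49 were found in both deposited tables, which hold 35604 rows each. Of these, 47 were measured in culture, among 12676 genes compared there, and 49 in tumours, among 15550. Tk1 and Mcm7 had the status FAIL in culture with a level of 0 in both libraries, which is a failed estimate and says nothing on their RNA. The members nearest to the minimum were Gins3 and Pold1 in culture, at 1.01 and 1.28 FPKM under DMSO, and Gins3 in tumours, at 3.00 FPKM under vehicle.

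All 4 libraries came from the line ESC-FC1801, embryonic Schwann cells of FVB/N background whose floxed Nf2 alleles had been deleted in culture with Ad-Cre, an adenovirus that carries Cre. There was 1 library in each of 4 groups; the sample type label calls all 4 cultured cells, while titles, sources and treatments place a pair of them in tumours. Cultured cells, kept in serum-free N2 medium with neuregulin and forskolin, were given DMSO or NXD30001 at 1 µM over 24 h. Mice with a tumour of this line received vehicle or NXD30001 at 100 mg/kg, 3 times a week for 4 weeks. The labels describe 1 line, so nothing here separates a property of the line from one of Nf2 loss, and no Nf2-intact cells were analysed here. A tumour also holds host cells, and in bulk RNA fewer cells of a type and less RNA per cell cannot be told apart. The age of the mice and the time from the last dose to collection are not given in the sources used here.

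Replication starts at origins, where CDC6 and CDT1 load the ring of MCM2 to MCM7 onto DNA in G1 and geminin blocks a second loading. The DBF4-dependent kinase CDC7, with MCM10, then adds CDC45 and the GINS complex, which makes the active helicase. Primase and polymerase alpha start each strand, RFC loads the PCNA ring, polymerases delta and epsilon extend, and FEN1 and LIG1 join the fragments of the lagging strand. Most of these genes are transcribed late in G1 by E2F factors, so their RNA is widely read as a mark of cells entering S phase. Schwann cells divide in response to neuregulin and stop dividing when they mature, and merlin, the product of Nf2, restrains that division.

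In culture, every measured replication gene was lower in the treated library. Differences are given as log2(FPKM + 1), treated minus untreated, and the 47 ran from -5.86 for Pold3 to -0.18 for Fen1, with a median of -1.74. At least 2-fold lower were 36 of 47 members, against 24.8% of all compared genes, and 0 were 2-fold higher, against 12.6%. Lower by any amount were 47 of 47, against 59.4% of all compared genes. The authors' deposited table called 19 members lower, against 7.14% of the compared genes, and 0 higher. The median of all compared genes was itself shifted by -0.25, and centring on it moved the share of lower genes among all genes past 2-fold from 66.3% to 50.8%. Relative to that shift the members' median was -1.49. At least 2-fold lower were then 32 of 47 members, against 18.4% of all compared genes. At least 2-fold higher were 0 members, against 2256 of the 12676 compared genes. Fen1 was the member whose direction turned, being above the shifted median. With 1 library a group there is no replicate error, no test of the conditions was run, and the words higher and lower refer to this set of libraries.

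**Figure D1:**
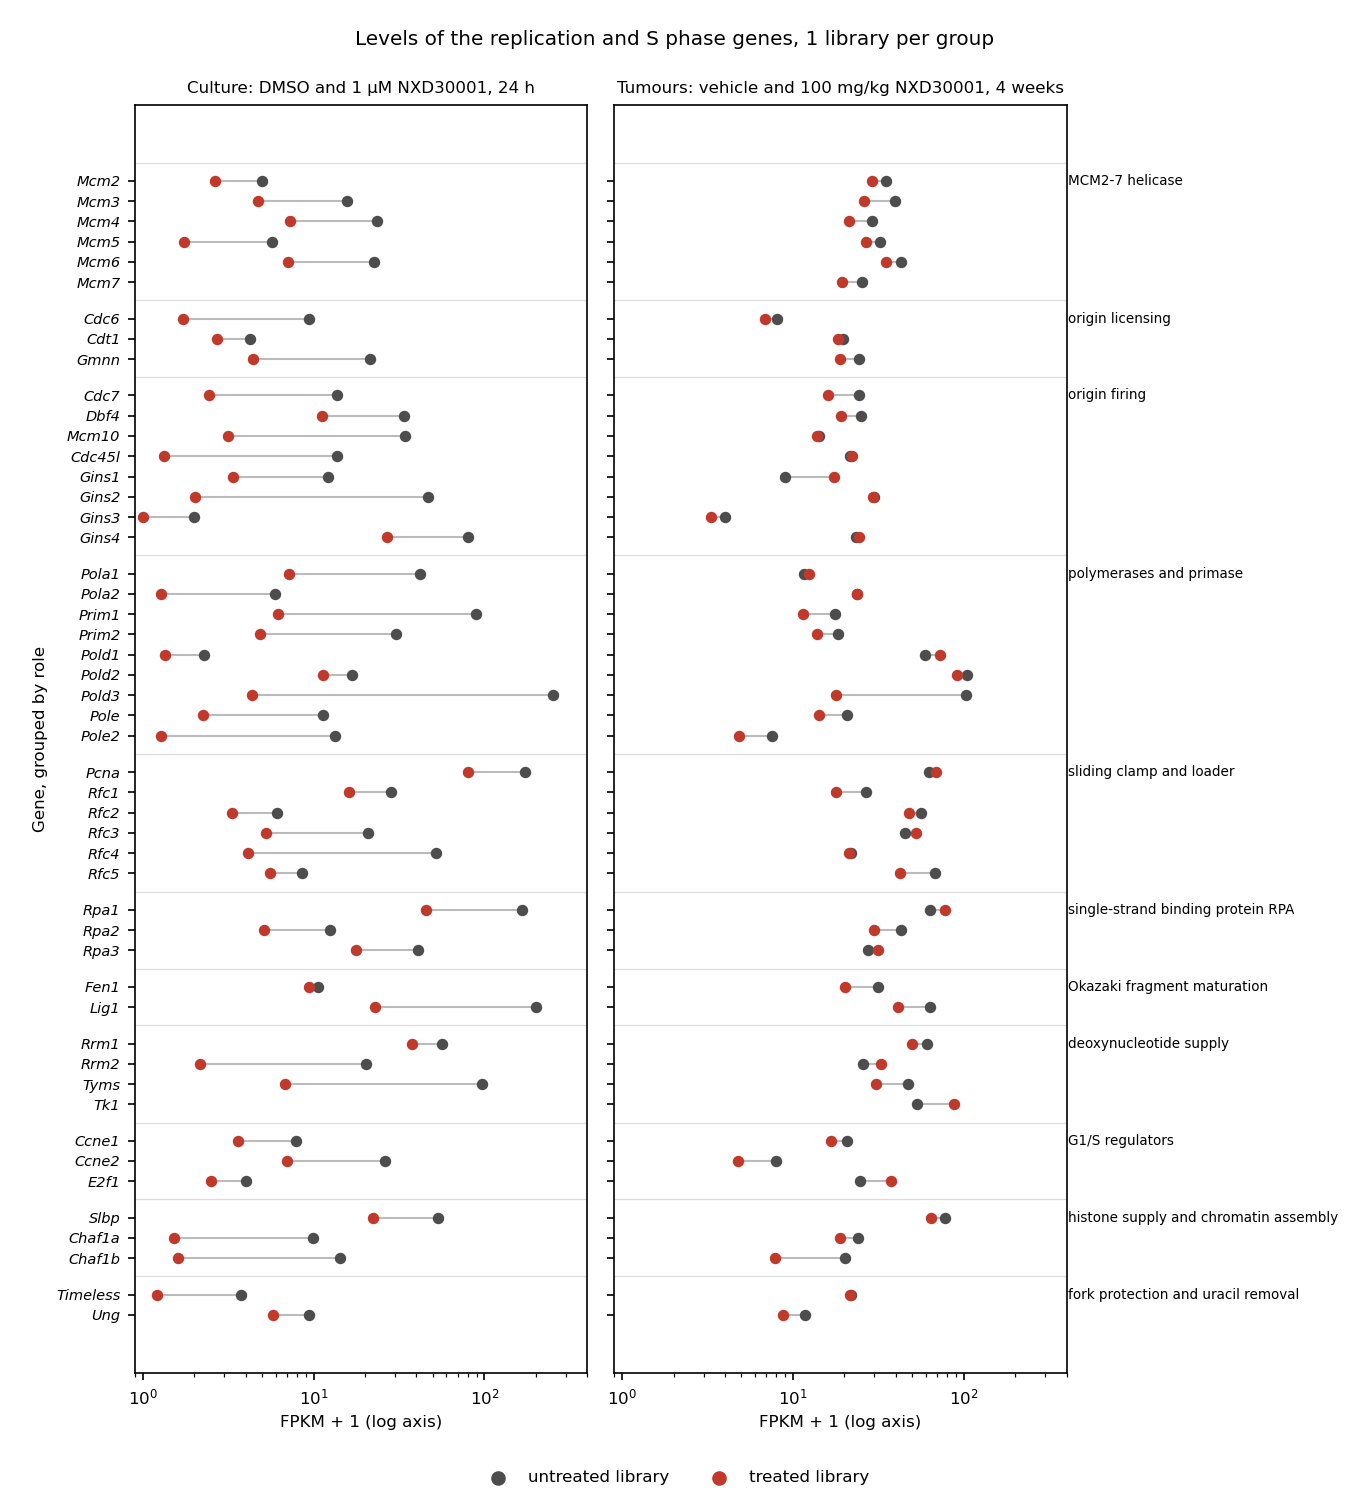
Level of each gene (FPKM + 1, log axis) in the untreated library (grey) and the treated library (red), culture on the left and tumours on the right, grouped by role; Mcm7 and Tk1 have no culture value. In culture all 47 red points lie left of their grey points, while in tumours 36 of 49 do and the shifts are small except for Pold3 and Chaf1b.

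An error for single genes can be read from the authors' deposited table, as its log fold divided by its statistic. This implied error (SE, log2) covers their model of these libraries and no biological spread. Its median over the members was 0.81 in culture and 0.32 in tumours. The implied error of Rrm2 in culture, 12.2, stands far from those of the other members, which ran from 0.54 for Pcna to 1.44 for Pold3.

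**Figure D2:**
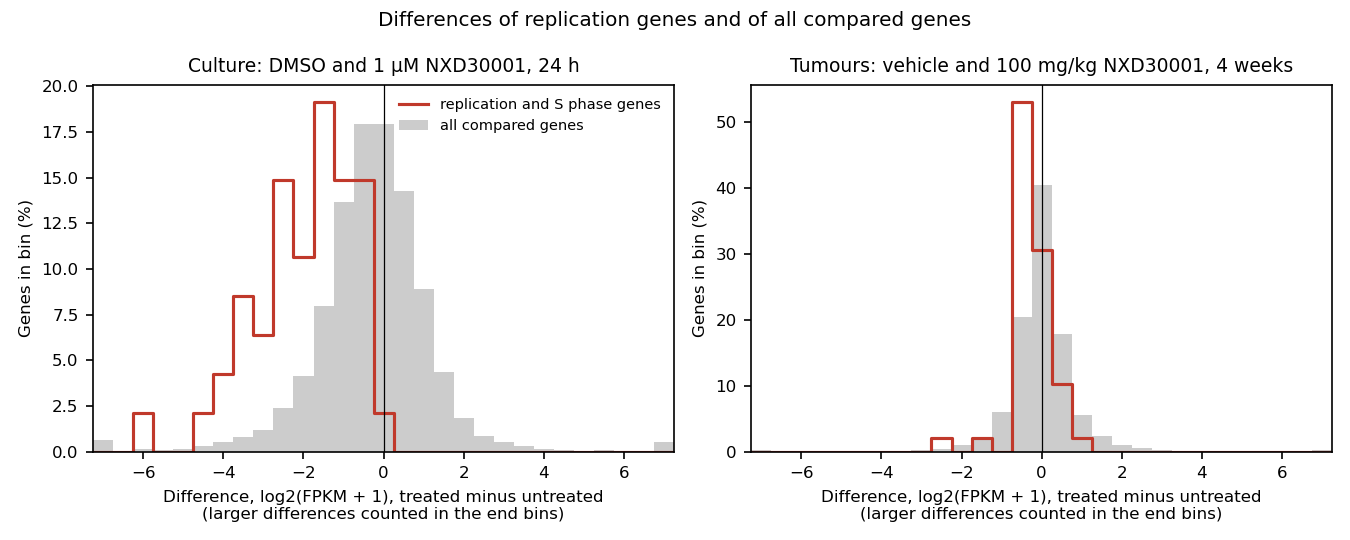
Share of genes (%) in bins of the difference (log2 scale, treated minus untreated) for all compared genes (grey) and the replication and S phase genes (red line), culture left and tumours right. The culture line is shifted to the left of the grey area, with medians of -1.74 and -0.25; in tumours they largely overlap, with medians of -0.29 and -0.03.

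Licensing genes were lower in the treated culture by unequal amounts. Cdc6, the loader that brings MCM rings to origins (chromosome 11 from 98769115 to 98785256 in mm9, as for all gene positions here), was at 8.38 FPKM under DMSO and 0.723 FPKM under NXD30001, a difference of -2.45. Gmnn, which encodes geminin, was at 20.5 and 3.44 FPKM. Cdt1, the partner of CDC6 that geminin blocks, was lower by less than 2-fold on the log2(FPKM + 1) scale, at 3.23 and 1.71 FPKM. Both the loader and the inhibitor of loading were thus lower, and of this group the authors' deposited table called only Cdc6.

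All 5 measured subunits of the MCM ring were lower in culture, all but Mcm2 at least 2-fold. Mcm3 was at 14.7 FPKM under DMSO and 3.70 FPKM under NXD30001, Mcm4 at 22.4 and 6.31 FPKM, Mcm5 at 4.70 and 0.751 FPKM, and Mcm6 at 21.6 and 6.05 FPKM. Their differences lay between -1.74 and -1.68 with the added 1 FPKM, but as a ratio Mcm5 was 6.25-fold lower and the others 3.55-fold to 3.97-fold. With a pseudocount of 5 FPKM Mcm5 was at -0.75, within 2-fold. Mcm2 was at 3.96 and 1.63 FPKM, or -0.91, just short of 2-fold. None of the 5 was called in the authors' deposited table, where the median implied error of the group was 0.87.

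The 8 genes that turn a loaded ring into a working helicase had a median of -2.17 in culture, and all were at least 2-fold lower, Gins3 only just. Gins2, a subunit of GINS, was at 45.6 FPKM under DMSO and 1.02 FPKM under NXD30001, 44.7-fold lower, at a locus (chromosome 8 from 123012766 to 123113204) that is given for 2 more rows. Cdc45l, the gene of CDC45 (chromosome 16 from 18780540 to 18812080), was at 12.7 and 0.336 FPKM, 37.8-fold lower. Mcm10, a factor needed to start the helicase, was at 33.3 and 2.15 FPKM. The kinase pair divided in size, with Cdc7 at 12.8 and 1.44 FPKM and its activator Dbf4 at 32.8 and 10.2 FPKM. Among the other GINS genes, Gins1 was at 11.1 and 2.39 FPKM and Gins4 at 78.7 and 25.9 FPKM. Gins3, at the edge of detection, was at 1.01 FPKM under DMSO and had a listed value of 0 after treatment, so no fold is given; its difference of -1.01 became -0.75 after centring and -0.26 with a pseudocount of 5 FPKM, within 2-fold. The authors' deposited table called Cdc7, Mcm10, Cdc45l and Gins2 in this group.

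The polymerase genes held the largest difference of all members. Pold3, an accessory subunit of polymerase delta (chromosome 7 from 107230621 to 107270075, a locus of its own), was at 252 FPKM under DMSO and 3.35 FPKM under NXD30001, 75.2-fold lower. It was the most abundant member in the DMSO library and ranked 99 from the lowest among the 12676 differences in culture. Its implied error in culture was 1.44. The other delta subunits among the members differed far less, with Pold2 at 15.8 and 10.4 FPKM. The catalytic Pold1 was at 1.28 and 0.356 FPKM, 3.58-fold lower as a ratio but within 2-fold as log2(FPKM + 1), where the added 1 shrinks differences of low genes. The genes of polymerase alpha and primase, which lay down each primer, were lower by more than 4-fold in all 4 cases. Prim1, the catalytic primase, was at 88.2 and 5.16 FPKM, Prim2 at 29.4 and 3.86 FPKM, Pola1 at 41.0 and 6.14 FPKM and Pola2 at 4.98 and 0.277 FPKM. In polymerase epsilon, which extends the leading strand, the catalytic Pole was at 10.3 and 1.25 FPKM and Pole2 at 12.3 and 0.277 FPKM. All members of this group other than Pold1 and Pold2, 7 of 9, had a call in the authors' deposited table.

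The clamp and its loader were among the less reduced genes. Pcna, the sliding clamp (chromosome 2 from 132074898 to 132079050), was at 171 FPKM under DMSO and 79.3 FPKM under NXD30001, 2.16-fold lower, which left it the most abundant member of the treated library. Rfc4 stood out among loader genes at 51.2 and 3.14 FPKM, and Rfc3 was at 19.9 and 4.30 FPKM. The large subunit Rfc1 was at 27.4 and 15.2 FPKM, Rfc2 at 5.09 and 2.34 FPKM and Rfc5 at 7.61 and 4.58 FPKM, each within 2-fold on the log2(FPKM + 1) scale. Rfc3 and Rfc4 were the only calls of this group in the authors' deposited table, and the locus of Rfc4 is also given for Eif4a2 and small RNA rows.

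RPA, which coats single-stranded DNA, was lower in all subunits by similar amounts. Rpa1 was at 166 and 44.7 FPKM, Rpa2 at 11.4 and 4.15 FPKM and Rpa3 at 39.6 and 16.6 FPKM, with differences from -1.87 to -1.20 and no call. The genes that finish lagging-strand fragments were far apart. Lig1, DNA ligase 1, was at 199 FPKM under DMSO and 22.0 FPKM under NXD30001, 9.06-fold lower and called in the authors' deposited table. Fen1, the flap nuclease, was at 9.65 and 8.42 FPKM, the smallest difference of all members. Both loci are given for other rows too.

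Genes of deoxynucleotide supply were also unequal. Tyms, thymidylate synthase, was at 95.7 and 5.76 FPKM, differing by -3.84 (implied error 0.71). Rrm2, the subunit of ribonucleotide reductase that cells make in S phase, was at 19.3 and 1.16 FPKM, 16.6-fold lower and not called. Its locus is given for 4 more rows, and its implied error was 12.2. Its partner Rrm1 was at 55.4 and 36.6 FPKM, within 2-fold. The ratio of Rrm1 to Rrm2 was 2.87 in the DMSO library and 31.6 in the treated one. That change rests on the Rrm2 difference with its large implied error.

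The regulators of S phase entry were lower and not called. Ccne2, a cyclin E gene, was at 25.1 and 6.02 FPKM, Ccne1 at 6.84 and 2.59 FPKM, and the transcription factor gene E2f1 at 3.04 and 1.52 FPKM, the last within 2-fold. Among genes that supply and place histones, the subunits of the assembly factor CAF-1 that are members were near the floor in treated cells. Chaf1a was at 8.97 and 0.513 FPKM and Chaf1b (chromosome 16 from 93884146 to 93906360) at 13.3 and 0.611 FPKM, and both were called. Slbp, whose protein binds histone mRNA, was at 52.2 and 21.3 FPKM. Timeless, which protects stalled forks, was at 2.77 and 0.214 FPKM and called, while Ung, which removes uracil from DNA, was at 8.42 and 4.81 FPKM, within 2-fold.

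Since all measured members were lower in culture, their promoters were searched for the E2F motif, using the RefSeq promoter table (GRCm38.p6), which runs from 250 bases before to 50 bases after each start. The letters searched were TTTCGCGC, TTTGGCGC, TTTCCCGC and TTTGGCGG on both strands; a TTTCGCGC can overlap a TTTGGCGC on the other strand. Of 49 members, 40 matched the table, and Mcm4, Gmnn, Gins1, Gins2, Gins4, Pole, Prim2, Rfc2 and Ccne2 did not. An E2F motif was found for 16 of the 40 members (40.0%), against 4.98% of 9722 genes compared in tumours and 2.70% of all 27025 genes of the table. By promoter these shares were 34.8% of 46 and 2.37% of 32851. The CCAAT box, searched as CCAAT on both strands, was found for 52.5% of members, 42.5% of compared genes and 41.1% of all genes of the table. The CHR element of mitotic genes, searched as TTTGAA and TTCGAA, was found for 22.5% and 16.3%, and for 21.7% of all genes of the table. A match is a description of letters and not a bound site.

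The stretches below are the 250 bases before the start in GRCm38.p6, 5′ to 3′ on the strand of the gene, with E2F matches in capitals. The first 4 belong to the members with the largest culture difference among those with a match before the start. Mcm5 and Mcm6 were added after the matches were seen, as subunits of the helicase ring with overlapping matches.
Chaf1a, chr17:56040166-56040415, plus strand: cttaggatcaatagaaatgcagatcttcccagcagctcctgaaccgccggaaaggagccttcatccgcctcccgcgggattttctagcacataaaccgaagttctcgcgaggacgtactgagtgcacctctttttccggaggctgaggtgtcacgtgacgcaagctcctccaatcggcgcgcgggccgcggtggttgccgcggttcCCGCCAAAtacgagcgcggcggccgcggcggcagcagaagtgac
Pola1, chrX:93632156-93632405, minus strand: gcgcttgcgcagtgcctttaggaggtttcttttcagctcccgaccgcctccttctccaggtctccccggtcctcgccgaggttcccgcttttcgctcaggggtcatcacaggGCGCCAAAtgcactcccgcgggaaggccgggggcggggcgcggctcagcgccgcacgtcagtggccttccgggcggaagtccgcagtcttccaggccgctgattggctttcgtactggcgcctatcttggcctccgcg
Cdc6, chr11:98907901-98908150, plus strand: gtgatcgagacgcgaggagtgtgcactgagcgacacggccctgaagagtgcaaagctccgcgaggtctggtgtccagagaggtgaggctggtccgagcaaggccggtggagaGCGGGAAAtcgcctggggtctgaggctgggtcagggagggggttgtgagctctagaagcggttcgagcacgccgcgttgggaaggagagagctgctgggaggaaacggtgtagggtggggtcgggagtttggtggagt
Rfc3, chr5:151651209-151651458, minus strand: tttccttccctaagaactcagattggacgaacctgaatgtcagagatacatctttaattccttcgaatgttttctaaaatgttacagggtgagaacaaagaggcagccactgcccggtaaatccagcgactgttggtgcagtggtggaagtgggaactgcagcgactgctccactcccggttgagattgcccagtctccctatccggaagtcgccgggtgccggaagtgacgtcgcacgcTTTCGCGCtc
Mcm5, chr8:75109259-75109508, plus strand: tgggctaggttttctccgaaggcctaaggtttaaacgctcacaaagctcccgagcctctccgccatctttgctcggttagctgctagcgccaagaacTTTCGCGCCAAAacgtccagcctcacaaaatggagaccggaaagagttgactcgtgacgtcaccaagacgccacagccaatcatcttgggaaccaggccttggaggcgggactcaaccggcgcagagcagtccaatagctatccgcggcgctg
Mcm6, chr1:128359706-128359955, minus strand: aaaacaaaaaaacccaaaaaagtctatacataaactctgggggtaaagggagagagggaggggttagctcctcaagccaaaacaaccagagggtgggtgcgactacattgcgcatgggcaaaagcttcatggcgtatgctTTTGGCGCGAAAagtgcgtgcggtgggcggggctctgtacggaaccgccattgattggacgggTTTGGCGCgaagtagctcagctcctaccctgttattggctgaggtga

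Within these stretches the match lay 44 bases before the start in Chaf1a, 138 in Pola1 and in Cdc6, and 10 in Rfc3, counted from the first base of the match. Mcm5 held an overlapping pair at 153 and 149 bases before the start. Mcm6 held such a pair at 110 and 106 bases and a lone match at 47. The culture differences of these genes were -2.72, -2.56, -2.45 and -1.98 in that order for the first 4, then -1.70 for Mcm5 and -1.68 for Mcm6. Of the 16 members with a match, 9 had it before the start, and in Pold3, Lig1, Pole2, Pola2, Mcm3, Pold1 and Cdt1 the only matches reached the start or lay after it. In culture the 15 measured members with a match had a median difference of -1.98 and the 23 without a match one of -1.25. In tumours these medians were -0.27 and -0.30. The difference between these sets was not tested.

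In tumours the same genes differed little between the treated and the vehicle library. The 49 differences had a median of -0.29, and 36 were below 0, against 52.7% of the 15550 compared genes. At least 2-fold lower were 2 members, Pold3 and Chaf1b, against 6.93% of compared genes, and 0 were 2-fold higher, against 7.32%. The share past 2-fold was thus near the background, while at 1.5-fold 12 of 49 members were lower, against 14.8% of compared genes. The authors' deposited table called 1 member lower, Pold3, against 2.45% of compared genes. All genes together had a median of -0.03, and relative to it the members' median was -0.26, with Gins2 and Timeless turning to above it.

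Helicase genes were slightly lower in the treated tumour, each by less than 2-fold. Mcm2 was at 33.9 FPKM under vehicle and 28.0 FPKM under NXD30001, Mcm3 at 38.4 and 25.1 FPKM, Mcm4 at 28.0 and 20.4 FPKM, Mcm5 at 31.3 and 25.7 FPKM, Mcm6 at 42.1 and 34.3 FPKM and Mcm7 at 24.6 and 18.5 FPKM. All 6 subunits were lower, with differences from -0.60 to -0.27 beside a median implied error of 0.31. The locus of Mcm7 is shared with 6 more rows, among them the miRNA cluster in its introns. The licensing genes were lower to a similar degree, with Cdc6 at 7.08 and 5.88 FPKM, Cdt1 at 18.6 and 17.3 FPKM and Gmnn at 23.5 and 17.8 FPKM, or differences from -0.38 to -0.10.

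The firing genes that were lowest in the treated culture were level in the tumours. Gins2 was at 28.9 FPKM under vehicle and 28.3 FPKM under NXD30001, Cdc45l at 20.7 and 21.2 FPKM and Mcm10 at 13.2 and 12.8 FPKM. Gins4 was at 22.5 and 23.4 FPKM and Gins3 at 3.00 and 2.31 FPKM. Gins1 was the member with the largest difference upward, at 8.01 and 16.4 FPKM, differing by 0.95 (implied error 0.67), and was not called. The kinase genes were lower, Cdc7 at 23.3 and 15.0 FPKM and Dbf4 at 24.0 and 18.1 FPKM.

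Polymerase genes lay on both sides of 0, with 6 lower and 3 higher. Pold3 was at 102 FPKM under vehicle and 16.9 FPKM under NXD30001, 6.03-fold lower, differing by -2.52 (implied error 0.56), and ranked 177 from the lowest of 15550. Its partners Pold1, at 58.2 and 71.2 FPKM, and Pold2, at 104 and 90.9 FPKM, did not follow it. Pola1 was at 10.7 and 11.4 FPKM and Pola2 at 22.6 and 22.7 FPKM, while the primase genes Prim1, at 16.6 and 10.5 FPKM, and Prim2, at 17.4 and 12.8 FPKM, were lower. Pole was at 19.8 and 13.2 FPKM and Pole2 at 6.57 and 3.85 FPKM. None of these but Pold3 was called.

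Clamp, loader and RPA genes lay on both sides of 0 in the tumours. Pcna was at 61.5 FPKM under vehicle and 68.2 FPKM under NXD30001, Rfc3 at 44.4 and 51.3 FPKM, and Rfc4 at 21.0 and 20.3 FPKM. Rfc1, at 25.8 and 16.8 FPKM, Rfc5, at 67.0 and 41.2 FPKM, and Rfc2, at 55.6 and 46.8 FPKM, were lower. Rpa1 was at 62.8 and 76.8 FPKM, Rpa3 at 26.7 and 30.7 FPKM and Rpa2 at 41.9 and 28.7 FPKM, so the subunits of this complex did not share a direction. Both lagging-strand genes were lower, Fen1 at 30.3 and 19.1 FPKM and Lig1 at 62.1 and 40.4 FPKM.

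Among nucleotide supply and entry genes 3 were higher in the treated tumour, Tk1, Rrm2 and E2f1. Tk1, thymidine kinase 1, was at 52.5 FPKM under vehicle and 87.0 FPKM under NXD30001, differing by 0.72 (implied error 0.30). Rrm2 was at 24.9 and 31.7 FPKM, Rrm1 at 60.2 and 48.7 FPKM, and Tyms at 46.5 and 29.7 FPKM. E2f1 was at 23.6 and 36.6 FPKM, differing by 0.62 (implied error 0.26), whereas Ccne2, at 6.99 and 3.77 FPKM, and Ccne1, at 19.7 and 15.7 FPKM, were lower. E2f1 and the cyclin E genes thus lay on opposite sides of 0, and none was called.

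Chromatin genes were lower in the treated tumour, 1 of them past 2-fold. Chaf1b was at 19.3 FPKM under vehicle and 6.89 FPKM under NXD30001, 2.79-fold lower and not called (log2 scale -1.36, implied error 0.57). Its partner Chaf1a was at 23.0 and 17.8 FPKM and Slbp at 77.2 and 63.0 FPKM. Timeless was level at 20.8 and 20.6 FPKM, and Ung was at 10.8 and 7.78 FPKM.

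Set side by side, 35 of the 47 members measured in both tables were lower in both. The other 12 were lower in culture and higher in tumours. For 45 of the 47 the culture difference was the lower one, Fen1 and Rfc5 being the exceptions. The shares of all genes with these patterns were not computed. Lower by any amount were 59.4% of the genes compared in culture and 52.7% in tumours. With no matching share beside them, these counts are read as no result about the members. Of the 36 members that were at least 2-fold lower in culture, 2 were also 2-fold lower in tumours, Pold3 and Chaf1b. The other 34 were within 2-fold in tumours. Of the 2725 genes compared in both tables that were 2-fold lower in culture, 6.46% were also 2-fold lower in tumours. The members' share is near that background and is read as no result about them. Across the 47 members the differences had a Pearson r of 0.38 and a Spearman rho of 0.14, and r was 0.11 without Pold3, so the relation rests on that gene. The tables share no library, but cells, dose and time all differ between them and cannot be told apart.

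**Figure D3:**
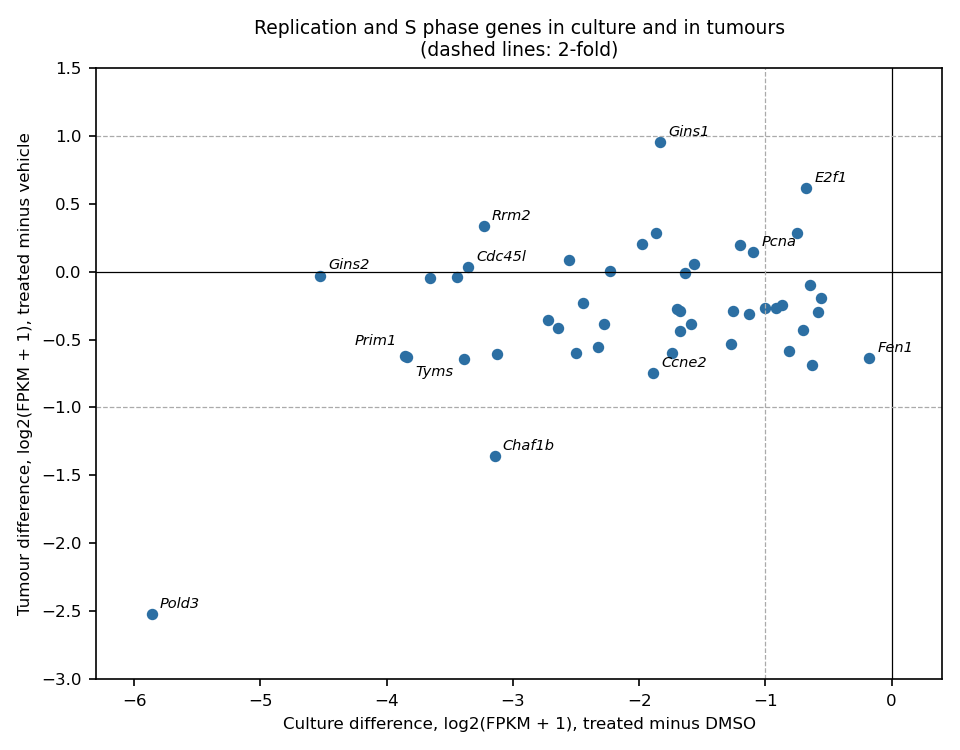
Difference of each of the 47 members measured in both tables (log2 scale, treated minus untreated), culture on the horizontal and tumours on the vertical axis, with 2-fold as dashed lines. Points spread along the culture axis and stay within 2-fold in tumours, except Pold3 and Chaf1b.

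In the untreated libraries, the subunits of most complexes were more uneven in culture than in the tumour. FPKM is scaled to length, and on that ground levels of different genes were set beside each other within a library. Levels in the DMSO library also moved with base composition, as given below. The part of base composition in these ratios was not tested. In polymerase delta the highest subunit was 197-fold above the lowest in the DMSO library (Pold3 over Pold1) and 1.79-fold in the vehicle tumour (Pold2 over Pold1). In RPA these ratios were 14.5 and 2.35, with Rpa1 highest in both. For polymerase alpha and primase they were 17.7 and 2.12, for RFC 10.1 and 3.19, and for Mcm2 to Mcm6 5.66 and 1.504. Over all members the SD of log2(FPKM + 1) was 1.68 in the DMSO library and 1.01 in the vehicle tumour. Polymerase epsilon, here Pole and Pole2, went the other way, at 1.199 and 3.01. Only subunits among the members were counted, so Pole3, Pole4 and Pold4, which stand in a further list, are not in these ratios.

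**Figure D4:**
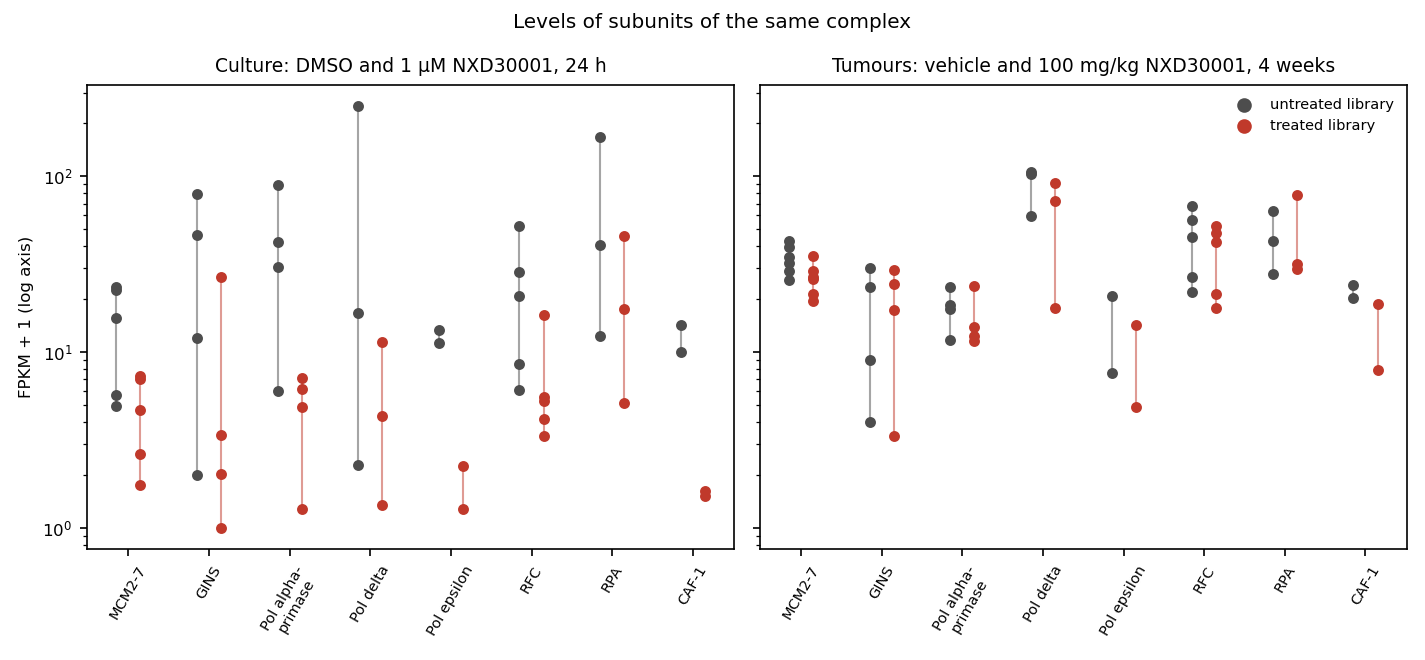
Level of each subunit among the members (FPKM + 1, log axis) for 8 complexes, untreated library in grey and treated library in red, culture left and tumours right. Lines join the lowest and highest of these subunits. The grey lines are longer in culture, above all for polymerase delta, where Pold3 and Pold1 are 197-fold apart, and polymerase epsilon is the exception.

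Base composition moved with these levels, a check added after the levels were seen. The GC content of each gene was taken as the median over its GENCODE M21 transcripts, which gave a value for all members. In the DMSO library members of high GC content had low levels, with a Spearman rho of -0.58 across 47 genes. The same rho was 0.19 across 49 genes in the vehicle tumour. Over all compared genes with a GC value the figures were -0.34 and 0.11. Pold1, the member with the highest GC content (60.7%), was at 1.28 FPKM in the DMSO library and 58.2 FPKM in the vehicle tumour, levels from tables that were normalized apart. The genes of a library share its depth and preparation, so these are descriptions across genes.

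**Figure D5:**
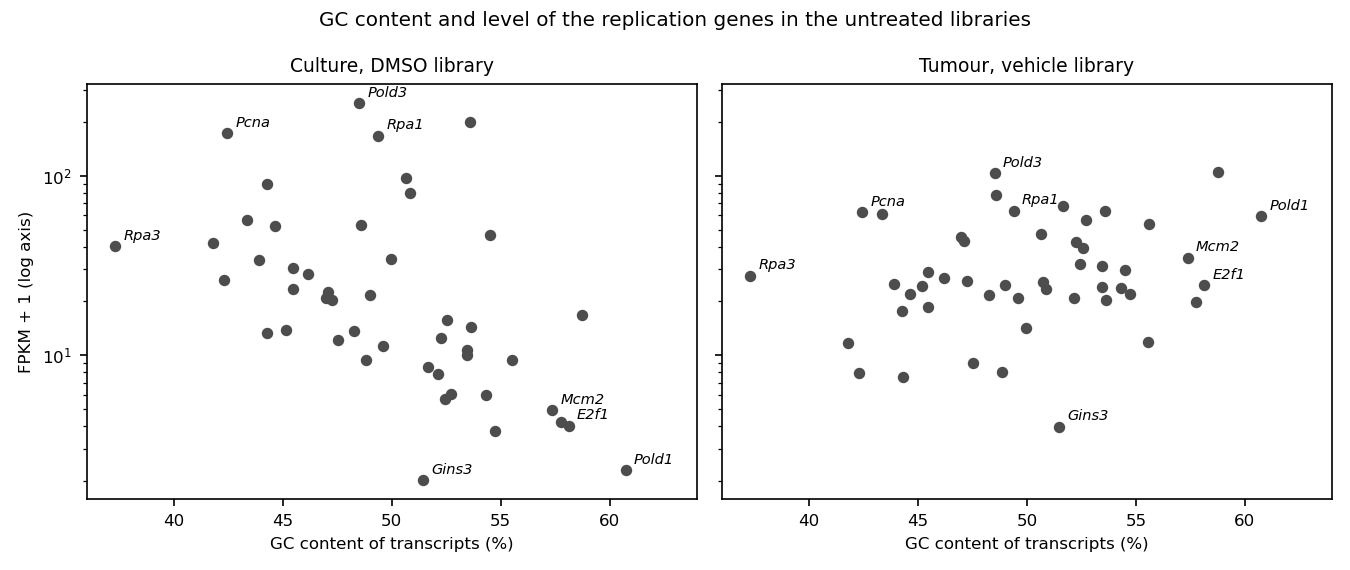
GC content of transcripts (%) against the level (FPKM + 1, log axis) of each member in the DMSO library (left, 47 genes) and the vehicle tumour library (right, 49 genes). Points fall to the right in culture (rho -0.58) and do not in the tumour (rho 0.19).

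The culture difference was also related to GC content, with a rho of 0.31 across the members and 0.10 across all compared genes. For the tumour differences the rho was 0.12 across the members and 0.12 across all compared genes. Genes compared in culture were put into 3 equal classes of GC content, with edges at 46.8% and 52.4%. Of the 13 members in the low class 84.6% were at least 2-fold lower, beside 26.8% of all genes there. In the middle class these shares were 94.7% of 19 members and 26.0%. In the high class they were 46.7% of 15 members and 20.2%. In each class the members' median, -1.89, -1.87 and -0.91, lay below that of all genes, -0.33, -0.29 and -0.08. The part of base composition in the unequal differences among members was not tested.

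Further genes of the pathway, in 6 lists, were also mostly lower in culture and close to level in tumours. In culture 34 of 62 measured genes were at least 2-fold lower (24.8% of all compared genes) and 0 higher (12.6%), with a median of -1.16 and 21 called lower in the authors' deposited table (7.14%). In tumours 4 of 63 were at least 2-fold lower (6.93%) and 1 higher (7.32%), with a median of -0.09 and 3 called lower (2.45%), so these shares are near the background and are read as no result about the lists. In culture the largest differences were those of E2f8, Uhrf1, Top2a, Mcm8 and Hells. E2f8, a repressor of the E2F family, was at 34.4 and 0.358 FPKM. Uhrf1, needed to copy DNA methylation marks, was at 26.9 and 0.309 FPKM, and Top2a, topoisomerase II alpha, at 505 and 31.2 FPKM. Mcm8 was at 13.8 and 0.0871 FPKM and Hells, a chromatin remodeller, at 89.7 and 5.69 FPKM. In the same list as E2f8 stood E2f3, at 101.8 and 7.10 FPKM and not called.

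The origin recognition complex, which marks origins through most of the cycle, had the smallest median difference of these lists in culture. It was -0.51, against -0.25 for all compared genes. At least 2-fold lower were 2 of 6 genes, against 24.8% of all compared genes. With 6 genes this is read as no result about the complex. Orc3l was at 198 and 53.4 FPKM and called, and Orc5l at 12.7 and 4.75 FPKM. Orc2l was level in culture at 20.7 and 20.3 FPKM but lower in the treated tumour at 22.4 and 10.6 FPKM, where it was called. In the other lists Wdhd1, a fork scaffold, was at 29.7 and 1.61 FPKM. Rnaseh2a, a subunit of ribonuclease H2, was at 29.6 and 3.28 FPKM, and the deoxynucleoside kinase gene Dck at 24.5 and 1.19 FPKM. Dctpp1, a nucleotide hydrolase gene, was at 32.2 and 2.20 FPKM.

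In tumours the 4 genes past 2-fold downward were Rrm2b, the ribonucleotide reductase subunit made outside S phase, at 32.5 and 5.47 FPKM, E2f6, at 156 and 21.1 FPKM, Orc2l, and E2f2, at 3.91 and 1.15 FPKM; all but E2f2 were called. E2f3 was the 1 gene 2-fold higher, at 7.24 and 19.6 FPKM (implied error 0.89, not called). Within 2-fold lay Donson (11.0 and 20.8 FPKM), Orc1l (2.90 and 5.10 FPKM), Rnaseh2b (10.6 and 5.48 FPKM), Rnaseh2c (73.2 and 108 FPKM), Dut (67.8 and 53.1 FPKM) and Nasp (35.4 and 25.9 FPKM).

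For scale, a list of 21 measured mitosis genes had a median of -4.12 in culture, with 20 at least 2-fold lower, beside -1.74 and 36 of 47 for the replication genes. In tumours its median over 22 genes was -0.09, with 0 lower and 1 higher. Nusap1, a spindle protein gene, was at 340 and 3.15 FPKM in culture and 20.8 and 13.4 FPKM in tumours, and Mki67, a proliferation marker, at 435 and 10.8 FPKM in culture and 14.6 and 19.4 FPKM in tumours. Cenpe, a kinetochore motor gene with 206 and 11.8 FPKM in culture, was called higher in tumours with 3.06 and 8.07 FPKM. Cenpf read 79.0 and 3.28 FPKM in culture, and 3.76 and 6.97 FPKM in tumours. The difference between the mitosis and replication lists was not tested.

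Of the 49 members 11 lie on chromosome 5 (22.4%), which holds 6.30% of the genes compared in tumours. These are Rfc1, Rfc2, Rfc3, Rfc5, Cdc7, Dbf4, Pole, Tyms, Slbp, Ung and Mcm7, the last not measured in culture. The culture differences of the others had no common size, running from -3.84 for Tyms to -0.63 for Rfc5.

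The libraries themselves set limits on these values. FPKM does not state depth, but genes whose implied error is that of 1 fragment in each library put the treated library at 1.05 times the depth of its control in culture (40 genes) and 1.19 times in tumours (56 genes). Nf2 was at 15.9 and 12.5 FPKM in culture and 57.2 and 42.8 FPKM in tumours, a whole-gene level that does not show the deleted exons. The Schwann cell markers Sox10, Erbb3, Ngfr and Cdh19 reached 1 FPKM in both tables, while S100b stayed at 0.563 FPKM or less in all 4 libraries. Sox10, Erbb3, Ngfr and Cdh19 were each lower in the treated culture and higher in the treated tumour. Under vehicle and NXD30001 in tumours, Sox10 was at 47.0 and 139.8 FPKM and Erbb3 at 12.4 and 26.3 FPKM. Ngfr was at 18.1 and 52.2 FPKM and Cdh19 at 4.91 and 25.7 FPKM. In the treated tumour the summed level of 6 macrophage markers was lower (283 and 167 FPKM), as was that of 6 endothelial markers (66.3 and 23.3 FPKM), with all members of both lists lower. Of 4 red blood cell markers 3 were lower, with Hba-a1 at 110.0 FPKM and listed at 0, while Alas2 was higher, at 0.610 and 4.72 FPKM. The sum of 5 fibroblast markers went from 2965 to 2260 FPKM in tumours, with 4 of 5 lower. That sum was 642 FPKM under DMSO and 943 FPKM under NXD30001 in culture. Most of it there was Col1a1 (346 and 711 FPKM) and Col1a2 (293 and 231 FPKM), so the sum is not particular to host cells. In culture the macrophage and endothelial sums were at or below 2.51 FPKM, with Emr1, Ptprc, Cd14, Cdh5, Tie1 and Emcn at 0, and 5 T cell and 4 skeletal muscle markers were at 0. The part of these cell types in the values of the replication genes was not tested.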

How the data were processed

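Total RNA of cultured cells and tumours was sequenced, with 1 library in each of 4 groups, and groups came from the treatment labels. CASAVA, TopHat 1.2.0, Cufflinks 1.0.2, Cuffdiff and build mm9 stand in the submitters' processing notes. Library strandedness was recorded as not given in the sources used here. Antisense and overlapping genes may share reads. Per the file headers, the authors deposited FPKM levels, the natural log (ln) of the fold, a test statistic and a q-value; the last 2 were used as a score of the authors' own comparison, since q reached 2.05. Estimates marked FAIL (705 in culture, 347 in tumours) or LOWDATA (61 and 449) were left out, and comparison within a table required 1 FPKM in at least 1 library. Differences are log2(FPKM + 1), which understates low genes, and calls are the authors'. A symbol in several rows entered with its highest row. Deposited starts count from 0 (end minus start equalled the GENCODE M21 length in 10580 of 19955 single-gene loci), so 1 was added. The comparison step returned known folds in simulated tables, made without noise and without the added 1 FPKM, so this checks the arithmetic alone. Computation used Python 3.11.15 and pandas 2.3.3.

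Members and lists were chosen with earlier results of these data known. Named genes were all members, up to 2 genes with the largest difference per further list and table, and Nf2; E2f2, the promoters of Mcm5 and Mcm6 and the GC check were added after values were seen. A planned search of protein motifs was not run. Alternatives varied the pseudocount, minimum, scaling, fold, shared loci and repeated symbols. Part of the Schwann cell marker list is not reported here.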

Additional observations from a re-analysis of the deposited data

Results flagged for a closer look

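There were 12 members whose differences had opposite signs, below 0 in culture and above 0 in tumours. The share of all genes with such signs was not computed. In tumours 52.7% of compared genes were below 0, and the count of 12 is read as no result about the members. None of these differences between settings was tested, and each setting has 1 library a group. The tumour difference exceeded the culture difference, on the log2 scale, by 3.57 for Rrm2, 3.39 for Cdc45l, 2.79 for Gins1, 2.64 for Pola1, 2.23 for Pola2, 2.18 for Rfc3, 2.16 for Rpa1, 1.62 for Gins4, 1.40 for Rpa3, 1.29 for E2f1, 1.24 for Pcna and 1.03 for Pold1. The tumour differences themselves were 0.29 or less for 9 of the 12, with 0.34 for Rrm2, 0.62 for E2f1 and 0.95 for Gins1. In tumours all but Gins1, Pold1, Rrm2 and E2f1 were below their own implied error, so the sign there is that of values close to level. The culture difference of Rrm2 has an implied error of 12.2, at a locus given for 4 more rows, and its place at the head of this order rests on it. In culture the same genes ran from -3.36 for Cdc45l to -0.68 for E2f1.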

How the results depend on the processing

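No paired analysis was possible because each group has 1 library. In culture the members 2-fold lower ran from 25 of 33 without shared loci to 39 of 47 with a pseudocount of 0.1 FPKM. Among all compared genes the shares at these settings were 23.7% and 29.9%. With a pseudocount of 5 FPKM 30 of 47 members were lower, against 13.4% of compared genes. No setting gave a member 2-fold higher, and the median ran from -2.17 to -1.27. At 1.5-fold and 3-fold the count was 44 and 29, against 37.6% and 12.6% of compared genes. In tumours the median ran from -0.30 to -0.25. At 1.5-fold 12 of 49 members were lower in tumours, against 14.8% of compared genes. At that fold 3 were higher, and the share of all genes higher was not computed. At 3-fold 1 was lower, against 2.93%. With a pseudocount of 0.1 FPKM 1 was 2-fold higher, which is Gins1. Of single members, no called or 2-fold difference changed sign under the pseudocounts and scalings run; Fen1 in culture did under both scalings, Timeless in tumours under both and Gins2 in tumours after centring. A pseudocount of 5 FPKM moved 13 culture members by more than their implied error or without one to compare, and a pseudocount of 0.1 FPKM 8. Depth limits members near 1 FPKM in the treated culture, where 10 of 47 were below it.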
